A study of Rattus norvegicus with 47 samples.

Results

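The genes described are 37 that build cholesterol, fatty acids and the glycerolipids made from them, out of 30045 genes in each deposited table, chosen by symbol and found in all 4 tables. They are 16 sterol enzymes, 12 fatty acid enzymes, 6 glycerolipid enzymes and 3 regulators. RNA was sequenced from lung and whole blood of male Fischer 344 rats, an inbred strain, that had inhaled crystalline silica (Min-U-Sil 5, a fine quartz dust) at 15 mg/m3 in whole-body exposures of 6 h a day on 5 days, or filtered air. Silica and air rats were studied 1 day and 6 months later. Each of the 8 groups (silica lung, air lung, silica blood and air blood at each time) held 6 libraries, except air lung at 6 months with 5, for 47 in all. The labels give free access to food but not the rats' age, the exposure chamber or the hour of killing, so that treatment and chamber cannot be told apart. Each library carries the number of 1 animal, and total estimated counts were about 9643520 to 25876000 per library. Of the alveolar type 2 cell markers, Sftpc and Slc34a2 were at 0 in all blood libraries at 1 day and in all silica blood libraries at 6 months. In air blood at 6 months, and in the lung groups, no marker of that list was at 0 throughout. Levels are CPM, counts divided by library size and scaled within each table, and they do not allow a comparison between genes, since gene length is not in the files. Differences between treatments are given on the log2 scale as silica relative to air, ± SE, with p adjusted by the Benjamini-Hochberg method over all genes tested by edgeR's quasi-likelihood test, and a call is an adjusted p below 0.05.

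Cells make cholesterol from acetyl-CoA through mevalonate, isoprenoid and squalene intermediates, and they make fatty acids from the same acetyl-CoA through malonyl-CoA. The membrane-bound factors SREBP-2 and SREBP-1, encoded by Srebf2 and Srebf1, switch on many sterol and fatty acid genes, and the Insig1 protein holds them back when sterol is plentiful. In lung, alveolar type 2 cells use these pathways to make surfactant lipid, and alveolar macrophages take up and break down spent surfactant. In whole lung, fewer cells of a type and less RNA per cell cannot be told apart, and the same holds for the mixed cells of whole blood.

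Promoter sequence was looked at because SREBP factors act together with the factor NF-Y, which binds the letters CCAAT. The RefSeq promoter table (GRCr8, 250 bases before to 50 after the start of a gene) was matched by symbol to 28 of the 37 genes. Scd was left out because its name is uncertain. Sqle, Fdft1, Pmvk, Acaca, Fasn, Elovl6, Dgat1 and Dgat2 had no match, so the shares do not cover them. The letters CCAAT, read on both strands, stood in promoters of 10 of 13 sterol genes (76.9%) and 4 of 8 fatty acid genes (50%). Of the 28 matched genes 20 held them (71.4%), against 39.6% of 27457 genes with a promoter in the table. A gene with several listed starts was counted if any of them held the letters. The core of a sterol regulatory element, TCACNCCAC on either strand, stood in 1 of 28 (3.57%, the promoter of Pcyt1a, at 133 bases before the start), against 1.25% of all genes with a promoter. With 1 more letter open (TCANNCCAC) it stood in 3 of 28 (10.7%), against 4.27% of all. The E-box CACGTG stood in 3 of 28 (10.7%), against 7.08% of all. These are matches of letters in a short window and not sites. The sequences of 3 sterol and 3 fatty acid genes are shown because they are the matched genes of each branch with the smallest p in lung at 1 day, and they show where the CCAAT letters lie. Each runs 5′ to 3′ on the strand of the gene, and capitals mark CCAAT or its reverse complement ATTGG.
Idi1 (chr17:66547475-66547774, minus strand): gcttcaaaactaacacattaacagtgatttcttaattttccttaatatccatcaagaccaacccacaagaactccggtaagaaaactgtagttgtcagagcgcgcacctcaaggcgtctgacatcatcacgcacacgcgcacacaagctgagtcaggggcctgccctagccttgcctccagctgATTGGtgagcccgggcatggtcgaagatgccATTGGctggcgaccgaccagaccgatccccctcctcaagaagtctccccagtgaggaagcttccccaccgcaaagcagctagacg
Hsd17b7 (chr13:84722705-84723004, minus strand): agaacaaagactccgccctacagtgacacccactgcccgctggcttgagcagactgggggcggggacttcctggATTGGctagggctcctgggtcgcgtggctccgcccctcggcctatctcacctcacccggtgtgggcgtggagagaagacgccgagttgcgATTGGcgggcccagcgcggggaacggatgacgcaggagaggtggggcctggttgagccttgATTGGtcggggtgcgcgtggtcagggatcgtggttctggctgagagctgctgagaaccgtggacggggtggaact
Lss (chr20:12118181-12118480, minus strand): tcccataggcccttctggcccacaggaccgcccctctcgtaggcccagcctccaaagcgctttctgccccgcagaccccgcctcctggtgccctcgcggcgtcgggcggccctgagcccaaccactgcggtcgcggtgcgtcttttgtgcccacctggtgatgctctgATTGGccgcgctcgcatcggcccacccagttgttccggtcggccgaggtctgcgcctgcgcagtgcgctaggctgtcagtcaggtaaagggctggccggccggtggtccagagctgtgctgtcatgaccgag
Me1 (chr8:96540195-96540494, minus strand): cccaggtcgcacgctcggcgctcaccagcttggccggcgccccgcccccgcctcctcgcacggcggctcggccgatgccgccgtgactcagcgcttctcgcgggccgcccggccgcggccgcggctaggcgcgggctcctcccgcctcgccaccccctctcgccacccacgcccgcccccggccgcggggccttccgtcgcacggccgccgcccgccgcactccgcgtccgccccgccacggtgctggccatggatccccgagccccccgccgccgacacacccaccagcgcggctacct
Elovl5 (chr8:87670914-87671213, plus strand): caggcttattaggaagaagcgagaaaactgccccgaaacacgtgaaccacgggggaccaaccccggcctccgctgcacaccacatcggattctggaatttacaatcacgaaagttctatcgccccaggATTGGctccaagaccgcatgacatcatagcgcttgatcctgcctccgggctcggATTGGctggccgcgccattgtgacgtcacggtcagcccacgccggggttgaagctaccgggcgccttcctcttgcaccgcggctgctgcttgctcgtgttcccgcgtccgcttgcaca
Acsl4 (chrX:110803212-110803511, minus strand): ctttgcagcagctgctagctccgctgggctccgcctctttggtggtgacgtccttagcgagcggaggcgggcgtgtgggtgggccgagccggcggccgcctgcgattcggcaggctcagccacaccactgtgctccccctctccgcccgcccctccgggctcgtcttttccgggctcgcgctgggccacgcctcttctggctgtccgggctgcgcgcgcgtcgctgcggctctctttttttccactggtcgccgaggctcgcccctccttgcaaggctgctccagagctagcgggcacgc
The capitals stand in the 3 sterol promoters Idi1, Hsd17b7 and Lss and in Elovl5, and the promoters of Me1 and Acsl4 hold none.

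The first question was which lipid synthesis genes differed in lung 1 day after the exposure. Most sterol enzymes were higher after silica, and few fatty acid enzymes passed the test. Of 36 tested, 14 rose and 1 fell (Elovl6 was too low to test, with 0.479 ± 0.499 CPM in silica and 0.504 ± 0.556 CPM in air lung, SD, n = 6 each). Over all 15331 genes tested, 14.1% were called (8.39% as higher and 5.72% as lower). Of 16 sterol enzymes 11 rose and 16 had a positive fold change, with a median of 0.50 on the log2 scale. Of 11 fatty acid enzymes 1 rose, with a median of 0.05. The median over all genes tested was -0.0024. All 6 silica libraries lay above all 6 air libraries for 8 of the 36 genes (7 sterol enzymes and Dgat2), against 7.79% of all genes whose groups did not overlap in either direction.

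**Figure D1:**
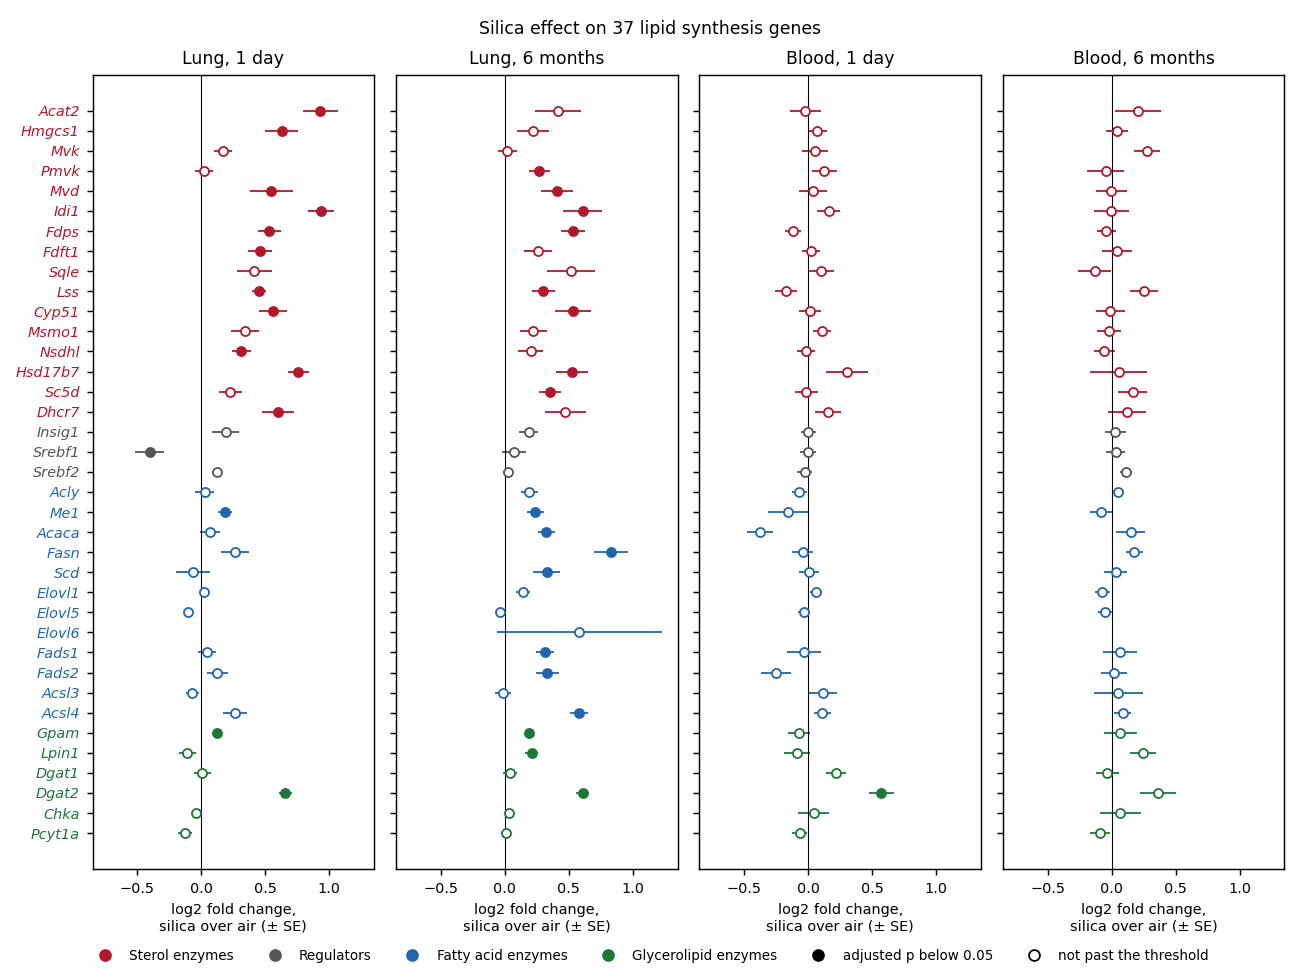
Points show each gene's log2 difference (silica over air) with its SE in lung and blood at 1 day and 6 months, coloured by branch, with filled points for an adjusted p below 0.05. In lung at 1 day 11 of 16 sterol enzymes are filled against 1 of 11 fatty acid enzymes, and at 6 months 8 of 16 sterol and 7 of 12 fatty acid enzymes are.

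Of the 6 enzymes up to the isopentenyl units, 4 rose after silica. Acat2, a thiolase that joins acetyl-CoA units, had 9.34, 11.6 and 14.4 CPM as lowest, median and highest of the silica libraries, against 4.95, 6.12 and 7.98 CPM in air. The groups did not overlap (log2 0.93 ± 0.14, adjusted p = 3.68e-04). RefSeq holds near-identical copies of Acat2, among which estimated counts can be split, so its level is uncertain. Hmgcs1, which makes HMG-CoA, had 70.5, 97.4 and 109 CPM in silica lung, against 49.1, 58.1 and 84.7 CPM in air lung. Its groups overlapped (log2 0.63 ± 0.13, adjusted p = 0.00421). Idi1, which turns isopentenyl diphosphate into its reactive isomer, had 50.1, 62.1 and 64.4 CPM in silica lung, against 24.0, 30.9 and 40.3 CPM in air lung. Every silica library was above every air library (log2 0.93 ± 0.10, adjusted p = 3.23e-05). Of the enzymes that take mevalonate to isopentenyl diphosphate, Mvd rose (log2 0.55 ± 0.17, adjusted p = 0.0452), while Mvk (log2 0.17, adjusted p = 0.129) and Pmvk (log2 0.02, adjusted p = 0.887) missed the threshold.

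Of the 10 enzymes of the later steps, from farnesyl diphosphate to the end of the sterol branch, 7 rose. Fdps, which makes farnesyl diphosphate, had 137, 154 and 184 CPM in silica lung, against 93.9, 108 and 131 CPM in air lung (log2 0.53 ± 0.090, adjusted p = 0.00123). Lss, which closes the sterol ring, had 35.0, 38.6 and 40.6 CPM in silica lung, against 25.4, 27.5 and 30.5 CPM in air lung (log2 0.45 ± 0.055, adjusted p = 7.29e-05). For both the groups did not overlap. Cyp51, the lanosterol demethylase, had 89.7, 102 and 116 CPM in silica lung, against 54.0, 68.9 and 89.3 CPM in air lung (log2 0.56 ± 0.11, adjusted p = 0.00337). Hsd17b7, a keto-reductase of the late steps, had 10.5, 11.9 and 12.8 CPM in silica lung, against 6.05, 7.04 and 7.70 CPM in air lung (log2 0.76 ± 0.084, adjusted p = 3.43e-05). Neither gene overlapped between groups, though the lowest silica value of Cyp51 stood just above its highest air value. Fdft1, Nsdhl and Dhcr7 rose by log2 0.46, 0.31 and 0.60 (adjusted p = 0.00423, 0.00995 and 0.00488). Sqle, the squalene epoxidase, did not pass, with 37.3, 42.0 and 47.5 CPM in silica against 22.9, 30.9 and 45.9 CPM in air lung (log2 0.41 ± 0.14, adjusted p = 0.0634), nor did Msmo1 (log2 0.34, adjusted p = 0.0513) or Sc5d (log2 0.23, adjusted p = 0.119).

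Among the fatty acid enzymes 1 passed the test. Fasn, the fatty acid synthase, had 842, 916 and 1083 CPM in silica lung, against 633, 763 and 956 CPM in air lung. Its groups overlapped (log2 0.26 ± 0.11, adjusted p = 0.128). The citrate-cleaving Acly had 303, 323 and 364 CPM in silica and 287, 303 and 385 CPM in air lung (log2 0.03 ± 0.073, adjusted p = 0.867). Scd, a stearoyl-CoA desaturase, had 1176, 1389 and 1587 CPM in silica and 1154, 1278 and 1929.7 CPM in air lung (log2 -0.07 ± 0.13, adjusted p = 0.788). Both overlapped between groups. Scd and the separately listed Scd1 carry names that RefSeq assigns differently between builds, so which desaturase the line Scd counts is uncertain; the 2 lines summed gave log2 -0.23 ± 0.16 (adjusted p = 0.383). Me1, the malic enzyme that supplies NADPH, rose (log2 0.19 ± 0.055, adjusted p = 0.0380).

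Dgat2, which attaches the last acyl chain of triglyceride, had the smallest p of the genes. It had 54.4, 60.5 and 65.9 CPM in silica lung, against 36.1, 38.1 and 42.7 CPM in air lung, with no overlap (log2 0.66 ± 0.050, adjusted p = 1.96e-06). Gpam, the first acyltransferase of glycerolipid synthesis, rose by less (log2 0.12 ± 0.036, adjusted p = 0.0343). Lpin1, Dgat1, Chka and Pcyt1a did not pass, with log2 values of -0.11, 0.01, -0.04 and -0.13. Among the regulators, Srebf1 fell, with 77.5, 82.6 and 89.0 CPM in silica lung, against 85.4, 103 and 141 CPM in air lung (log2 -0.40 ± 0.11, adjusted p = 0.0299). Its groups overlapped, and the air libraries of animals 37 and 38 (139 and 141 CPM) were higher than the other 4 air libraries (85.4 to 105 CPM). Srebf2 had 157, 173 and 181 CPM in silica and 152, 156 and 169 CPM in air lung (log2 0.12 ± 0.039, adjusted p = 0.0560). Insig1 had 119, 147 and 158 CPM in silica and 98.2, 119.5 and 166 CPM in air lung (log2 0.19 ± 0.11, adjusted p = 0.275).

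A few libraries were at an end of their group for most of the enzymes. The air library of animal 38 was highest of its group for 14 of 16 sterol enzymes and 8 of 11 fatty acid enzymes, and the silica library of animal 46 was lowest of its group for 11 of 16 sterol enzymes. Without air 38, 18 of the genes were called, all higher: Sqle, Msmo1, Insig1, Srebf2 and Acsl4 then passed, and Srebf1 and Me1 no longer did. The share of all genes called in that fit is not reported here. Calls of Mvd, Me1, Gpam and Srebf1 were lost without several single libraries.

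**Figure D2:**
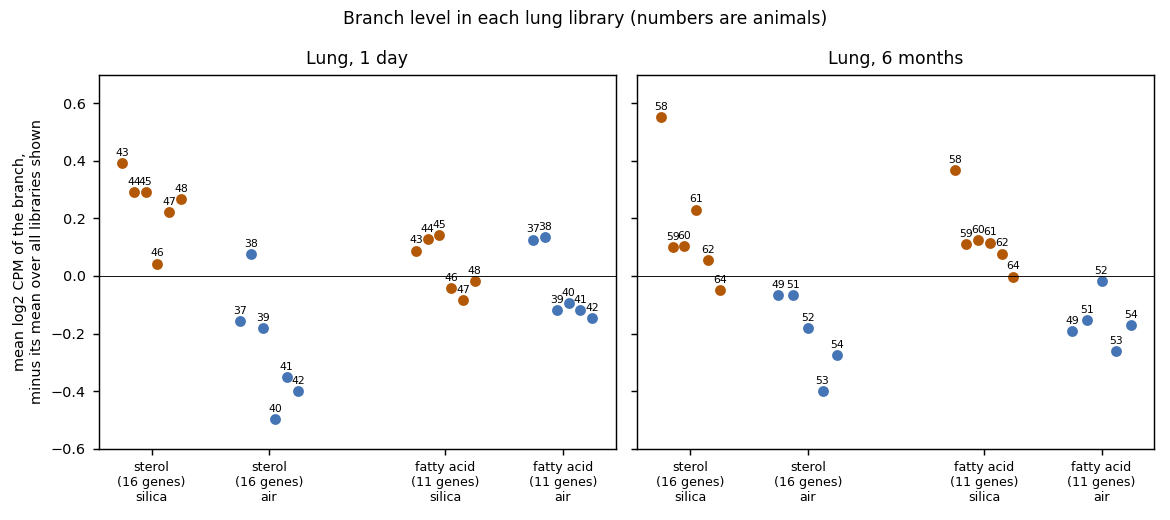
Each point is a lung library, placed at the mean log2 CPM of a branch's genes minus the mean over all libraries of that time, with animal numbers beside it and silica left of air. Elovl6 is left out of the fatty acid branch. At 1 day the sterol level of air 38 (0.08) lies above that of silica 46 (0.04), and at 6 months silica 58 stands highest in both branches (0.55 and 0.37).

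Lung at 6 months was compared in the same way. Here 18 of 37 genes rose while 0 fell, against 16.2% of 15309 genes called (9.84% as higher, 6.38% as lower). Of 16 sterol enzymes 8 rose, of 12 fatty acid enzymes 7 rose, of 6 glycerolipid enzymes 3 rose and of 3 regulators 0 did. The medians were log2 0.38, 0.32, 0.12 and 0.07, beside -0.0080 over all genes. All silica libraries lay above all air libraries for 11 of the 37 genes, against 10.5% of all genes whose groups did not overlap in either direction.

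Fasn showed the largest log2 fold change among the genes called. It had 857, 1085 and 1429.7 CPM in silica lung, against 493, 573, 589.5, 653 and 775 CPM in air lung, with no overlap (log2 0.83 ± 0.14, adjusted p = 0.00162). Acsl4, which activates arachidonic acid, had 239, 274 and 307 CPM in silica lung, against 159, 176, 183, 199 and 201 CPM in air lung, again with no overlap (log2 0.58 ± 0.070, adjusted p = 2.63e-04). Acaca, which makes malonyl-CoA, had 69.2, 76.8 and 83.4 CPM in silica lung, against 54.2, 57.6, 62.9, 64.4 and 67.4 CPM in air lung. Its lowest silica value lay just above the highest air value (log2 0.32 ± 0.064, adjusted p = 0.00477). Fads1, a desaturase of polyunsaturated fatty acids, had 202, 217 and 256 CPM in silica lung, against 165, 166, 175, 177 and 206 CPM in air lung, and overlapped through 1 air library (log2 0.31 ± 0.070, adjusted p = 0.00909). Me1 and Fads2 rose by log2 0.24 and 0.33 (adjusted p = 0.0244 and 0.0273). Scd rose, with 1220.2, 1363 and 1829.6 CPM in silica and 1005, 1059, 1092, 1092 and 1359.5 CPM in air lung (log2 0.33 ± 0.10, adjusted p = 0.0473), and did not pass when summed with Scd1 (log2 0.29 ± 0.12, adjusted p = 0.131). Acly had 293, 304 and 379.6 CPM in silica and 256, 260.4, 283, 287 and 302 CPM in air lung (log2 0.19 ± 0.067, adjusted p = 0.0698). The elongases Elovl1, Elovl5 and Elovl6 and the acyl-CoA synthetase Acsl3 did not pass.

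**Figure D3:**
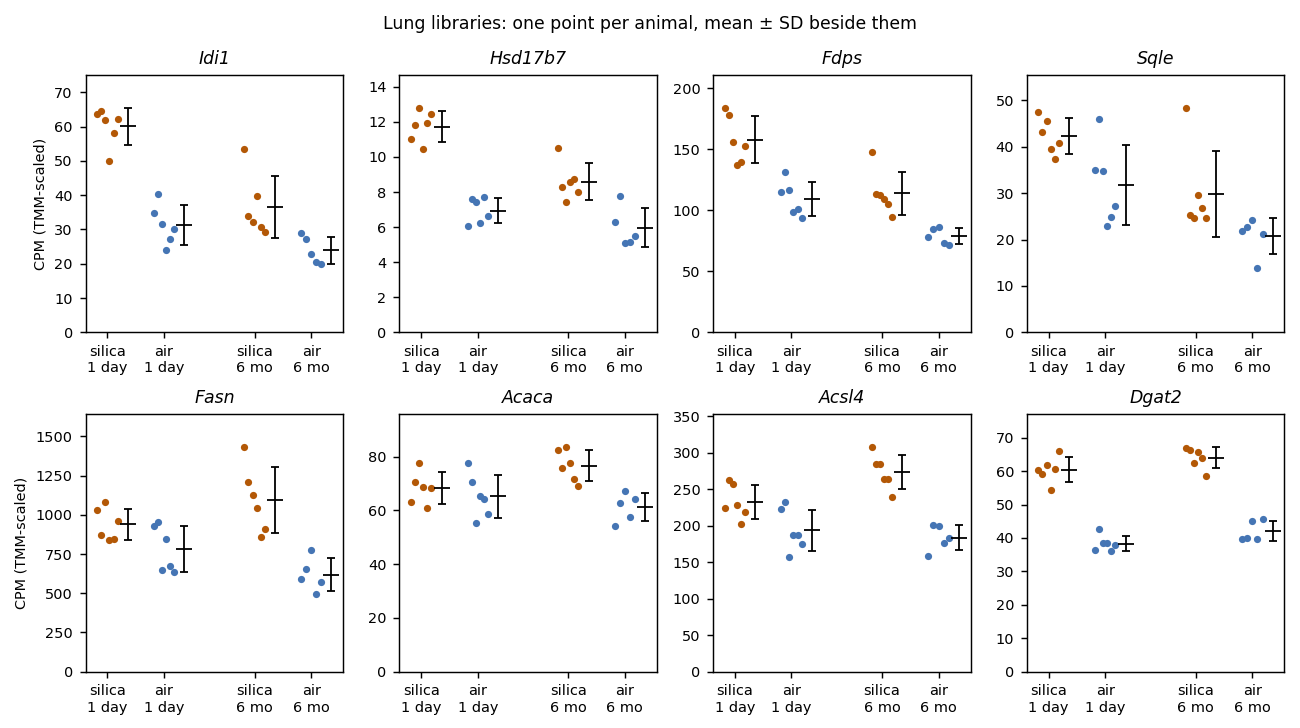
Points are lung libraries in CPM (one per animal, linear axis from 0), with mean ± SD beside them and silica left of air at each time, for 4 sterol enzymes, 3 fatty acid enzymes and Dgat2. Idi1 silica libraries (50.1 to 64.4 CPM at 1 day) lie above all air libraries at both times, whereas Fasn and Acaca separate at 6 months and overlap at 1 day.

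Dgat2 again had the smallest p, with 58.6, 64.8 and 67.0 CPM in silica lung, against 39.7, 39.8, 40.0, 44.95 and 45.6 CPM in air lung (log2 0.61 ± 0.051, adjusted p = 2.68e-05). Gpam had 160.4, 165 and 172 CPM in silica lung, against 138, 139.5, 145, 149.8 and 150.5 CPM in air lung (log2 0.19 ± 0.033, adjusted p = 0.00196). Lpin1, a phosphatidate phosphatase, had 28.7, 30.0 and 33.8 CPM in silica lung, against 25.7, 26.3, 26.4, 26.8 and 27.2 CPM in air lung (log2 0.21 ± 0.051, adjusted p = 0.0135). None of these 3 overlapped between groups. Dgat1, Chka and Pcyt1a did not pass, with log2 values of 0.04, 0.04 and 0.01.

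In the sterol branch Fdps had 94.6, 111 and 148 CPM in silica lung, against 71.1, 73.4, 77.8, 84.4 and 86.0 CPM in air lung, with no overlap (log2 0.53 ± 0.096, adjusted p = 0.00277). Hsd17b7, Sc5d, Idi1, Cyp51, Lss, Mvd and Pmvk rose by log2 0.52, 0.35, 0.61, 0.54, 0.30, 0.41 and 0.27 (adjusted p = 0.0144 to 0.0440). Sqle had 24.6, 26.0 and 48.3 CPM in silica lung, against 13.9, 21.3, 21.8, 22.6 and 24.1 CPM in air lung. Its groups did not overlap, yet it did not pass (log2 0.52 ± 0.19, adjusted p = 0.0775). Hmgcs1 overlapped, with 52.9, 55.4 and 77.6 CPM in silica and 42.6, 46.3, 48.0, 58.4 and 64.1 CPM in air lung (log2 0.22 ± 0.12, adjusted p = 0.255). Acat2, Fdft1, Nsdhl, Dhcr7, Msmo1 and Mvk did not pass either. Of the regulators, Srebf1, Srebf2 and Insig1 had log2 values of 0.07 ± 0.095, 0.03 ± 0.039 and 0.19 ± 0.073 (adjusted p = 0.653, 0.678 and 0.102), with overlapping groups. The library of silica 58 was highest of its group for 15 of 16 sterol and 9 of 11 fatty acid enzymes. Elovl6, at 0 CPM in air 49, was left out of that count, and silica 58 was lowest of its group for it (0.234 CPM). Without the library of silica 58, 15 of 37 genes were called, and Mvd, Pmvk and Scd were lost. Without air 53, lowest of its group for 9 of 16 sterol enzymes, 10 were called, and Idi1, Cyp51, Lss, Mvd, Pmvk, Me1, Fads2 and Scd were lost. The shares of all genes called in those fits are not reported here, so the losses may not be particular to these genes.

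Across the 2 times in lung, 9 genes rose at both: the sterol enzymes Mvd, Idi1, Fdps, Lss, Cyp51 and Hsd17b7, with Me1, Gpam and Dgat2. A further 5, all sterol enzymes, were called at 1 day alone, and 9 at 6 months alone, of which 6 were fatty acid enzymes. Such counts do not test a change between times. Of all genes tested, 14.1% were called at 1 day and 16.2% at 6 months. The share of all genes called at both times, or at 1 time alone, was not counted. The change in the silica effect, 6 months minus 1 day, was tested in 1 model over the 4 lung groups. By edgeR it called 0 of 37 genes, against 1.375% of 15786 genes (1.12% with a larger and 0.253% with a smaller log2 value at 6 months). At an unadjusted p below 0.05, edgeR had 11 of 37 genes (29.7%) and 2138 of all 15786 (13.5%). By DESeq2 1 gene, Lpin1, passed at the adjusted threshold. The smallest p belonged to Lpin1 (log2 0.33 ± 0.088, adjusted p = 0.0664), Fasn (log2 0.57 ± 0.18, adjusted p = 0.135) and Srebf1 (log2 0.48 ± 0.16, adjusted p = 0.157). All 12 fatty acid enzymes had a positive difference (median 0.24) and 4 of 16 sterol enzymes did (median -0.13). Over all genes tested 7662 of 15786 did (median -0.0050). Genes of a branch were read in the same libraries, so their signs are not independent, and the contrast between branches was not tested.

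**Figure D4:**
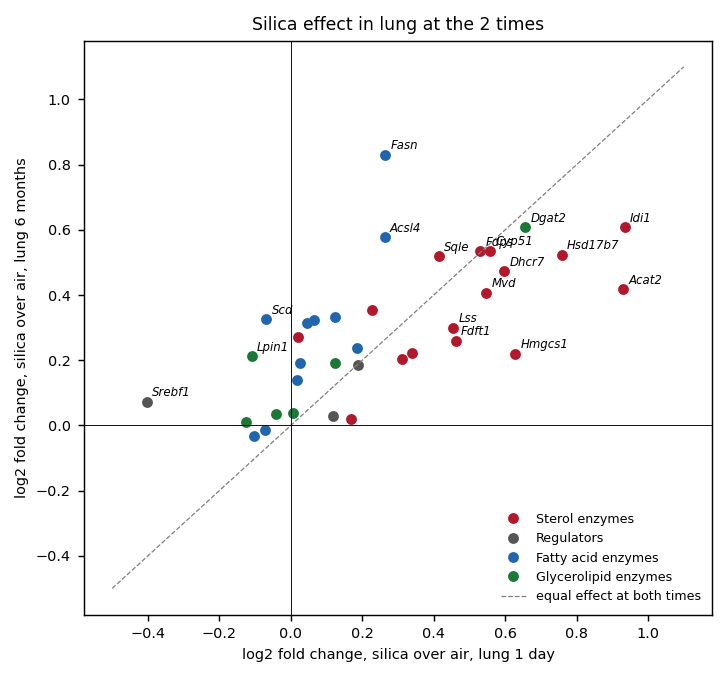
Each point is a gene tested at both times, with its log2 fold change of silica over air in lung at 1 day on the x axis and at 6 months on the y axis, and the dashed line marks an equal effect. Fasn (0.26 and 0.83) lies above the line, Acat2 (0.93 and 0.42) and Hmgcs1 (0.63 and 0.22) lie below it, and Dgat2 (0.66 and 0.61) lies near it.

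Marker genes of other cells moved alongside, where 14.1% of all genes were called at 1 day and 16.2% at 6 months. Of 10 alveolar type 2 cell markers 2 rose and 1 fell at 1 day and 8 rose at 6 months, when their summed level was 31390.5 to 38744 CPM in silica lung, against 22038 to 27737 CPM in air lung. At 1 day the sums overlapped (23933 to 30310.5 CPM in silica, 23543 to 28806 CPM in air). Of 9 macrophage markers tested 3 rose and 1 fell at 1 day and 8 rose at 6 months. The sums of that list at 6 months were 2496 to 3352 CPM in silica and 1627 to 2087 CPM in air lung. At 1 day its sums overlapped (1849 to 2485 CPM in silica, 1505 to 2519 CPM in air). All 8 proliferation markers rose at both times, with sums of 141 to 171 CPM in silica and 50.5 to 76.8 CPM in air lung at 1 day. At 6 months these sums were 105 to 138 CPM in silica and 53.8 to 76.4 CPM in air lung. Silica 58 had the highest sum of its group for these 3 lists at 6 months, and air 38 had the highest sum of its group for them at 1 day. Neutrophil markers summed to 319 to 673 CPM in silica and 134 to 257 CPM in air lung at 1 day, when 6 of 7 tested rose, and to 449 to 640.1 CPM in silica and 229 to 341 CPM in air lung at 6 months, when 3 of 8 rose. Other lists fell. Of 7 endothelial markers 4 fell at 1 day, with sums of 3440.2 to 3792 CPM in silica and 3777 to 4151 CPM in air lung that overlapped, and 7 fell at 6 months, with sums of 3072 to 3609.6 CPM in silica and 3856 to 4269.8 CPM in air lung that did not. Of 6 erythroid markers tested 5 fell at 1 day, with sums of 2833 to 3751 CPM in silica and 3767 to 5024 CPM in air lung and no overlap, and 1 of 7 fell at 6 months, when the sums overlapped. Of 7 fibroblast markers 2 fell at each time, and at 6 months 2 of the 7 had a positive fold change. Their summed levels overlapped at both times. At 1 day they were 1719 to 2170 CPM in silica and 1988 to 2227.5 CPM in air lung. At 6 months they were 1578 to 1820 CPM in silica and 1662 to 1793 CPM in air lung. Of 8 adipocyte markers 3 were high enough to test at each time, so their sums are a weak sign of fat around the tissue. At 1 day the sums were 91.6 to 118 CPM in silica and 103 to 140.4 CPM in air lung. Adig was then at 0 in all libraries of both groups and Plin1 at 0 in all silica libraries. At 6 months the sums overlapped as well (100.2 to 146.9 CPM in silica, 128.6 to 152.9 CPM in air). The part of these cells in the lipid synthesis results was not tested.

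Other genes of the pathways were read from longer lists. Over all genes tested in lung, 14.1% were called at 1 day and 16.2% at 6 months. At 1 day the further sterol, fatty acid and glycerolipid lists had 33.3%, 12.5% and 16.7% called. The efflux and storage list had 57.1% and the oxidation list 25%. At 1 day in lung 4 of 15 further sterol genes rose and 1 fell, among them Tm7sf2, a sterol C14 reductase (log2 0.99 ± 0.15, adjusted p = 4.07e-04). Of 16 further fatty acid genes 1 rose and 1 fell: Mlxipl, which encodes the carbohydrate-responsive factor ChREBP, rose (log2 1.21 ± 0.20, adjusted p = 9.27e-04) and the acyl-CoA synthetase Acsl1 fell (log2 -0.18 ± 0.055, adjusted p = 0.0386). Of 18 further glycerolipid genes 1 rose (Pcyt2) and 2 fell (Mogat2 and Chpt1). Of 14 genes of sterol efflux and storage 3 rose and 5 fell. They were led by Ch25h, a cholesterol hydroxylase (log2 1.30 ± 0.12, adjusted p = 6.97e-06), Abca1, a sterol exporter that fell (log2 -0.52 ± 0.086, adjusted p = 9.72e-04), and Soat1, which esterifies cholesterol (log2 0.29 ± 0.052, adjusted p = 0.00192). Of 12 fatty acid oxidation genes 0 rose and 3 fell (Ech1, Ucp3 and Pdk4).

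At 6 months 7 of the 14 efflux and storage genes rose and 1 fell, with Soat1 (log2 0.53 ± 0.076, adjusted p = 7.23e-04), the sterol exporter Abcg1 (log2 0.47 ± 0.068, adjusted p = 7.74e-04) and Npc2, a lysosomal sterol carrier (log2 0.72 ± 0.11, adjusted p = 7.74e-04), leading. The silica effect had a higher log2 value at 6 months than at 1 day, with the difference tested, for 4 of these 14: Abca1 (log2 0.66 ± 0.11, adjusted p = 0.00285), Abcg1 (log2 0.73 ± 0.13, adjusted p = 0.00531), the lipid droplet coat gene Plin2 (log2 0.39 ± 0.081, adjusted p = 0.0120) and Npc2 (log2 0.50 ± 0.13, adjusted p = 0.0427). Of 15 further sterol genes 1 rose and 1 (Faxdc2) fell, and of 17 further fatty acid genes 1 (Mlxipl) rose and 2 (Fads3 and Elovl7) fell. In the oxidation list 3 of 12 rose, Hadha and Hadhb among them, and Ucp3 fell, and of 18 further glycerolipid genes 0 rose and Mogat2 fell. The further sterol, fatty acid and glycerolipid lists had 13.3%, 17.6% and 5.56% called at 6 months, against 16.2% of all genes. The efflux and storage list had 57.1% and the oxidation list 33.3%. In the test between times 28.6% of the efflux and storage list was called, against 1.375% of all genes.

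In blood at 1 day 1 of 36 genes tested was called, against 1.371% of 12253 genes (1.19% as higher, 0.18% as lower). That gene was Dgat2, with 56.4, 62.5 and 67.0 CPM in silica blood, against 30.5, 40.3 and 50.7 CPM in air blood (log2 0.57 ± 0.099, adjusted p = 0.0140). It was the 1 gene of 36 whose groups did not overlap, against 1.93% of all genes. Acaca had 5.94, 7.54 and 9.14 CPM in silica and 8.60, 10.1 and 10.7 CPM in air blood (log2 -0.38 ± 0.10, adjusted p = 0.0864). Dgat1 had 9.91, 11.5 and 12.3 CPM in silica and 8.66, 9.996 and 10.7 CPM in air blood (log2 0.22 ± 0.076, adjusted p = 0.220). Both overlapped between groups. Srebf2, Acly and Fasn had log2 values of -0.03, -0.07 and -0.04 (adjusted p = 0.888, 0.693 and 0.884), and Srebf1 averaged 25.5 ± 1.26 CPM in silica and 25.5 ± 2.40 CPM in air blood (SD, n = 6 each). Neutrophil markers moved alongside: 5 of 8 rose, and their summed level was 3499 to 4313 CPM in silica and 2143 to 2744 CPM in air blood. Their part in the Dgat2 difference was not tested. In the longer lists 1 gene, the glycerol acyltransferase Gpat3, was called (log2 0.47 ± 0.098, adjusted p = 0.0294).

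**Figure D5:**
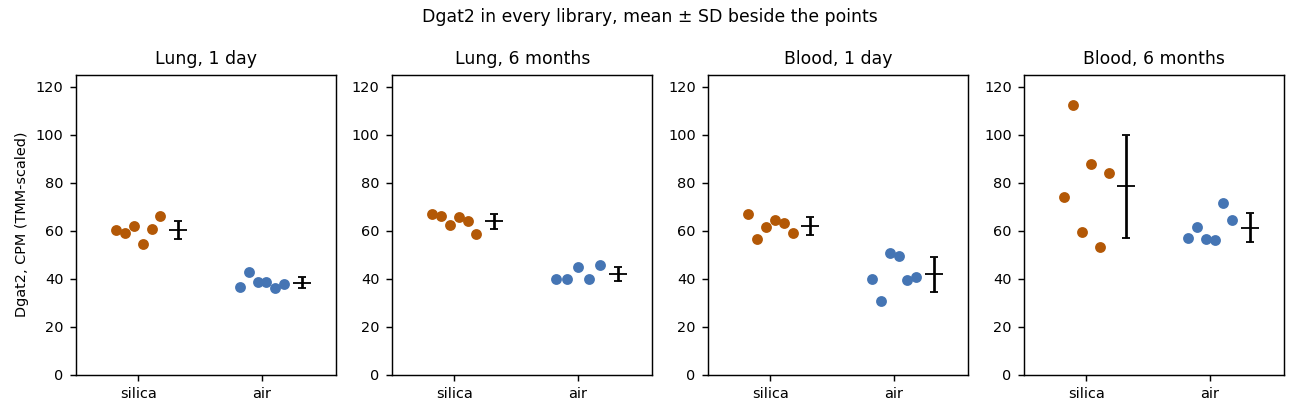
Dgat2 in CPM in every library of lung and blood at both times (linear axis from 0, mean ± SD beside the points, silica left of air). Silica libraries lie above all air libraries in lung at both times and in blood at 1 day (56.4 to 67.0 against 30.5 to 50.7 CPM), and overlap them in blood at 6 months.

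In blood at 6 months 0 of 36 genes were called by edgeR, against 0.0086% of 11629 genes, and 0 by DESeq2. At an unadjusted p below 0.05, edgeR had 6 of 36 genes (16.7%) and 1012 of all 11629 (8.7%). No gene of the 36 had groups that did not overlap, against 0.378% of all genes. Dgat2 had 53.1, 79.1 and 112 CPM in silica and 56.2, 59.2 and 71.5 CPM in air blood (log2 0.36 ± 0.14, adjusted p = 0.539). Mvk had 5.65, 6.63 and 7.86 CPM in silica and 5.18, 5.38 and 6.01 CPM in air blood (log2 0.28 ± 0.10, adjusted p = 0.539). Fasn had 31.5, 37.0 and 40.4 CPM in silica and 28.5, 33.4 and 34.6 CPM in air blood (log2 0.18 ± 0.068, adjusted p = 0.539). All 3 overlapped between groups. Srebf1, Srebf2 and Acly had log2 values of 0.03, 0.11 and 0.05. The change between times in blood called 0 of 37 genes by edgeR, against 0% of 12444 genes, and 0 by DESeq2. There 5 of 37 genes (13.5%) had an unadjusted p below 0.05 by edgeR, against 1326 of all 12444 (10.7%).

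Lung and blood were set against each other by testing the difference of the silica effects, lung minus blood. At 1 day 4 of 37 genes differed, all with a larger effect in lung, against 4.03% of 15989 genes called (2.05% as larger and 1.98% as smaller in lung). They were Lss (log2 0.58 ± 0.098, adjusted p = 7.31e-04), Fdps (log2 0.60 ± 0.11, adjusted p = 0.00255), Idi1 (log2 0.73 ± 0.14, adjusted p = 0.00299) and Acat2 (log2 0.91 ± 0.18, adjusted p = 0.00423), all sterol enzymes. With the animal as a block the count was 7, adding Cyp51, Hmgcs1 and Srebf1, the last of them with a lower effect in lung. Lung and blood libraries carry shared animal numbers, but that the numbers pair them was not shown. Deviations from the group means had a correlation over 0.1 in 2 of 12 same-numbered pairs at 1 day. Libraries of unlike numbers were not set beside them, so these correlations cannot decide the pairing. At 6 months 3 of 37 genes differed, against 3.53% of 15790 genes (2.53% as larger and 1% as smaller in lung): Acsl4 (log2 0.46 ± 0.097, adjusted p = 0.00794), Fdps (log2 0.55 ± 0.12, adjusted p = 0.0126) and Fasn (log2 0.63 ± 0.16, adjusted p = 0.0250). Without air 53 the Fasn difference lost its call (adjusted p = 0.0540). For Dgat2 at 1 day the difference was log2 0.04 ± 0.12 (adjusted p = 0.952).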

How the data were processed

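Lung and blood RNA of silica and air rats was sequenced from poly(A) libraries, the blood after globin depletion, per the labels' protocols. The deposited tables hold the authors' estimated counts per gene, not normalized. Per the submitters' processing notes, the tools were Salmon 1.10.1, STAR 2.6.1d, Trim Galore 0.6.7, cutadapt 3.4 and bcl2fastq 2.19 and the build was Rnor_6.0; roles and order are not given. Estimated counts can split reads among near-identical genes. Counts were rounded, genes kept by filterByExpr (minimum count 10), scaled by TMM and tested with edgeR 4.0.16 (quasi-likelihood, R 4.3.3) within each tissue and time over its silica and air libraries. Interactions used 1 model over 4 groups, and SE was taken as the absolute log2 fold change over the root of F. Alternatives used DESeq2 1.42.0, limma-voom 3.58.1, sva 3.50.0, other filters and scaling, single libraries left out and the animal as a replicate block. The tests were run on simulated data with known changes first. The genes and lists were chosen with earlier results of these data known. Of 214 genes in the lists 2 were not found and 6 were found under an older name. Named in full were the 8 genes with the smallest p that passed in each comparison (3 where fewer than 3 passed) and Hmgcs1, Sqle, Insig1, Srebf1, Srebf2, Fasn, Scd and Acly in lung, with Srebf1, Srebf2, Acly and Fasn in blood. Of each longer list up to 3 genes with the smallest p that passed are named, and a few genes are not reported here. Promoters came from a RefSeq table of GRCr8, matched by gene symbol, with no coordinates converted.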

Additional observations from a re-analysis of the deposited data

Results flagged for a closer look

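In 9 of 86 groups tested, 1 library lay far from the rest of its group by Dixon's test at 95%. Chance gives about 1 in 20 for independent groups. These groups are genes read in the same libraries, so the count does not show an excess over chance. In lung at 6 months silica 58 was far above the other silica libraries for Fdps (148 CPM, the others 94.6 to 113 CPM), Sqle (48.3 CPM, the others 24.6 to 29.5 CPM), Scd (1829.6 CPM, the others 1220.2 to 1415 CPM) and Acly (379.6 CPM, the others 293 to 325 CPM). In the air lung group of that time, air 53 was far below the others for Sqle (13.9 CPM, the others 21.3 to 24.1 CPM), and air 52 was far above them for Scd (1359.5 CPM, the others 1005 to 1092 CPM). At 1 day air 38 was far above the other air lungs for Dgat2 (42.7 CPM, the others 36.1 to 38.5 CPM). In blood, air 40 was low for Srebf2 at 1 day (65.0 CPM, the others 75.2 to 80.1 CPM) and air 53 was high for Mvk at 6 months (6.01 CPM, the others 5.18 to 5.43 CPM).

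The silica effect differed between lung and blood, by the test of the difference in edgeR, for 4 genes at 1 day and 3 at 6 months. The difference of log2 fold changes, lung minus blood, was 0.58 for Lss, 0.60 for Fdps, 0.73 for Idi1 and 0.91 for Acat2 at 1 day, and 0.46 for Acsl4, 0.55 for Fdps and 0.63 for Fasn at 6 months.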

How the results depend on the processing

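Leaving out 1 library at a time, the genes called numbered 11 to 18 in lung at 1 day and 10 to 18 at 6 months (10 without air 53), 1 to 1 in blood at 1 day, 0 to 0 in blood at 6 months, 0 to 1 for the time difference in lung (Lpin1, without air 39 or 42), 0 to 0 in blood, and 4 to 7 (7 without blood silica 43 or lung air 38) and 2 to 3 for the tissue difference at 1 day and 6 months. DESeq2 called 2 genes in blood at 1 day, as did a fit with 1 surrogate variable, 1 for the time difference in lung and 9 for the tissue difference at 1 day. With the animal as a replicate block the tissue difference called 7 genes at 1 day, with Cyp51, Hmgcs1 and Srebf1 added, and 3 at 6 months, and no gene called without the block lost its call. Deviations of same-numbered lung and blood libraries from their group means correlated at -0.0869 to 0.134 at 1 day and -0.0636 to 0.0975 at 6 months. Libraries of unlike numbers were not correlated for comparison. With air 38 and silica 58 both left out, chosen after seeing the data, the time difference in lung called 0. The other counts stayed within 1.5 times. Shares of all genes called under these settings are not reported here, so a gain or loss may not be particular to these genes.

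Signs changed for small differences that passed no test, on the log2 scale. Srebf1 in blood at 1 day had 0.0012 by limma-voom, 0.0047 with no filter and 0.000679 with 4 groups in 1 fit, and -0.040 to 0.043 with single libraries left out. Likewise left out in turn, Scd in lung at 1 day had -0.13 to 0.028, Acly -0.0092 to 0.081, Srebf1 in lung at 6 months -0.0081 to 0.11, Srebf2 there -0.0052 to 0.047 (both lowest without air 53) and Srebf1 in blood at 6 months -0.00024 to 0.074. The cause was not tested. At 1 day in lung Mvd lost its call without 10 of the 12 single libraries, Gpam and Me1 without 8 and Srebf1 without 6. At 6 months Pmvk lost it without 9 of 11, Scd without 8, Mvd without 7 and Lss without 6. Counts per library limit low genes such as Elovl6.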

Other observations

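In air rats the genes were set side by side between tissues, with lung and blood scaled separately, so that these are levels and not a test. At 1 day all air lungs lay above all air bloods for 32 of 37 genes, the groups overlapped for 4 and lung lay below for 1. At 6 months the counts were 33, 2 and 2. The same counts were not made over all genes, so they cannot be read as particular to these genes. Fads1 averaged 206 ± 22.1 CPM in lung and 9.49 ± 1.57 CPM in blood at 1 day (SD, n = 6 each), and Fasn averaged 782 ± 147 CPM in lung and 55.6 ± 3.69 CPM in blood. Me1 was lower in lung, with 38.2 ± 2.02 CPM in lung and 56.1 ± 10.3 CPM in blood. Dgat2 averaged 38.3 ± 2.35 CPM in lung and 41.8 ± 7.40 CPM in blood, and its groups overlapped.

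The difference of silica effects between lung and blood also passed for genes of the longer lists that were tested in both tissues. At 6 months it was larger in lung by edgeR for 4 of 14 efflux and storage genes. They were Npc2, Abcg1, Lipa and Soat1 (log2 0.74, 0.49, 0.49 and 0.47), and no gene of the other longer lists was called. Over all genes tested 3.53% were called (2.53% as larger in lung). At 1 day the calls, not limited to genes tested in both tissues, went both ways. Of 15 further sterol genes 1 was larger in lung, and of 14 efflux and storage genes 1 was larger and 1 smaller. Smaller in lung were also 2 of 18 further glycerolipid genes and 1 of 12 oxidation genes, and of 16 further fatty acid genes 0 were called. Over all genes tested at 1 day 4.03% were called (2.05% as larger and 1.98% as smaller in lung). Lipa encodes the lysosomal acid lipase, which frees cholesterol from its esters, and Soat1 makes those esters.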
